A study of Mus musculus with 6 samples.

Results

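The 52 genes described here encode proteins that bring new polypeptides into the endoplasmic reticulum (ER), glycosylate and fold them there, retrieve or discard them, and sense stress in that compartment. They were taken by gene symbol from the annotation of the array. Of the 52, 48 had at least 1 probe and 43 had a probe bright enough to test, out of 16593 genes with a probe and 9973 genes tested in all. Sec61g, Dnajb11, Sdf2l1 and Atf6 had no probe under those symbols and are not analysed here. Sec62, Ssr1, Canx, Manf and Ern1 each had 1 probe, which was detected on none of the 6 arrays.

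The arrays hold RNA from mouse lymph nodes, 3 from mice labelled Rag2/pfp KO and 3 from mice labelled wild type. Rag2 is needed to assemble the antigen receptor genes, so that mice without it make no mature B or T cells, and pfp is an older name of the perforin gene Prf1, used by cytotoxic cells to kill. The labels name no strain, age or node, and they do not tie replicates to different mice. The p-values therefore cover array-to-array spread alone, part or all of which may be technical. All levels below are normalized log2 signals of 1 array, and all changes are knockout minus wild type on that scale.

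A protein destined for secretion or for a membrane is caught at the ribosome by the signal recognition particle and handed to the Sec61 channel. The signal peptidase removes its signal sequence, the oligosaccharyltransferase attaches glycans, and chaperones and disulfide isomerases fold it. Proteins that fail are returned to the cytosol and destroyed, and an excess of unfolded protein activates the sensors Ern1, Eif2ak3 and Atf6, which raise chaperone genes. Plasma cells, which secrete antibody, and exocrine gland cells, which secrete enzymes and mucins, are known for an enlarged ER.

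Markers of both of those cell types differed between the arrays. Of the 16 plasma cell markers 8 were tested, and 5 of them fell and 0 rose. Their mean level was 6.67 to 7.02 on the knockout arrays and 9.44 to 10.82 on the wild-type arrays. Mzb1, an ER cochaperone of B and plasma cells, stood at 7.67, 7.18 and 8.28 in knockout nodes, against 14.78, 13.96 and 15.69 in wild-type nodes (change -7.10, SE 0.49, limma adjusted p = 0.00136). Pou2af1, a transcriptional coactivator of B cells, stood at 5.98, 5.08 and 5.02 in knockout nodes, where 1 array detected it, and at 14.34, 13.32 and 14.67 in wild-type nodes (adjusted p = 0.000502, limma). Tnfrsf17 and Tnfrsf13b, receptors for plasma and B cell survival factors, were not above background on any knockout array and were at least 8.0-fold and at least 6.92-fold lower there (limma adjusted p = 0.00285 and adjusted p = 0.00408). The defining plasma cell gene Jchain was likewise not above background on any knockout array. Sdc1, Irf4 and Slamf7 were detected on all 6 arrays and were not called, with changes of -0.62, -1.11 and 0.08. B cells share several of these markers, and 14 of 15 tested B cell markers fell, from a list that averaged 6.76 to 7.26 on knockout arrays and 10.85 to 11.67 on wild-type arrays. Of 16 T cell markers 13 fell and 1 rose.

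Wild-type replicate 2 stood apart from the other wild-type arrays. Over all probes its log2 signals correlated at 0.955 to 0.966 with the knockout arrays but at 0.943 and 0.948 with wild-type replicates 1 and 3, which correlated with each other at 0.991. Markers of exocrine glands were high on it: the list averaged 10.97, 14.60 and 13.13 on the knockout arrays, against 6.06, 11.35 and 5.99 on the wild-type arrays, with 24, 24 and 25 of 25 genes detected in knockout nodes and 8, 24 and 8 in wild-type nodes. Dcpp2, a secreted salivary protein gene, stood at 16.01, 15.98 and 16.01 in knockout nodes, against 5.31, 15.99 and 5.09 in wild-type nodes. Klk1b26, a glandular kallikrein, stood at 9.82, 16 and 15.21 in knockout nodes, against 5.03, 9.40 and 5.07 in wild-type nodes, and Dcpp3 and Bpifa2 changed by 7.14 each without being called. In all, 3 of the 25 gland genes and 0 of 14 epithelial genes were called, although all 14 epithelial genes had a positive change. Of 13 macrophage markers 1 fell and 4 rose, and of 10 dendritic cell markers 0 fell and 5 rose. The genotype could not be checked by its own genes: the single probe for Rag2 was undetected in both genotypes, and the Prf1 probes gave changes of 0.35 and -0.14 (limma adjusted p = 0.439 and adjusted p = 0.804). No source used here says whether these probes lie in the deleted parts.

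Several of the 52 genes carry in their promoters the short element through which unfolded protein in the ER is known to raise transcription. This ER stress element (ERSE) is shown here as a description of the genes. It was spelled as CCAAT, any 9 bases, then CCACG, and was looked for on both strands of the 300 bases that run from 250 before to 50 after the gene start in RefSeq (GRCm38.p6). Each site is given below 5′ to 3′ on the strand where it reads in that order, with 10 bases on either side and both fixed blocks in capitals.
Hsp90b1, chr10:86705533-86705551: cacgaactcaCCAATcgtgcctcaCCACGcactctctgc
Hsp90b1, chr10:86705638-86705656: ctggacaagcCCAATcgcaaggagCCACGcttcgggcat
Syvn1, chr19:6046532-6046550: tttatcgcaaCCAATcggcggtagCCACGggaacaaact
Hspa5, chr2:34772025-34772043: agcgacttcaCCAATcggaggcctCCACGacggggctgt
Pdia6, chr12:17266491-17266509: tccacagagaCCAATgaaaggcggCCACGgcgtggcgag
Dnajc3, chr14:118937827-118937845: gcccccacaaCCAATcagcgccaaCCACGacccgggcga
Creld2, chr15:88819520-88819538: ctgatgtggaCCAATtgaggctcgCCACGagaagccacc
Calr, chr8:84847075-84847093: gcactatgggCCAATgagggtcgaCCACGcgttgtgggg
Canx, chr11:50325800-50325818: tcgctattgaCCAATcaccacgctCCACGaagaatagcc
The gene strand is minus for Hsp90b1, Calr and Canx and plus for the others, and the element reads on the gene's own strand in all but Calr, Creld2 and the Hsp90b1 site nearer the start. The first bases of the sites lie 44 to 212 bases before the gene start.

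A promoter window was found for 40 of the 52 genes, and 8 of them (20%) held the element, against 37 of 27025 genes with a window (0.137%). The element was originally described in ER chaperone promoters, Hspa5 and Hsp90b1 among them, so the share is a description of the members and no independent finding. The related ERSE-II, spelled ATTGG, 1 base, then CCACG, was in 2 of the 40 (5%), Herpud1 and Dnajb11, against 12 of all genes (0.0444%). The unfolded protein response element, spelled TGACGTGG, was in 0 of the 40 and in 193 of all genes (0.714%). Each of the 10 windows with a motif held 1 kind, so the motifs did not overlap.

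**Figure D1:**
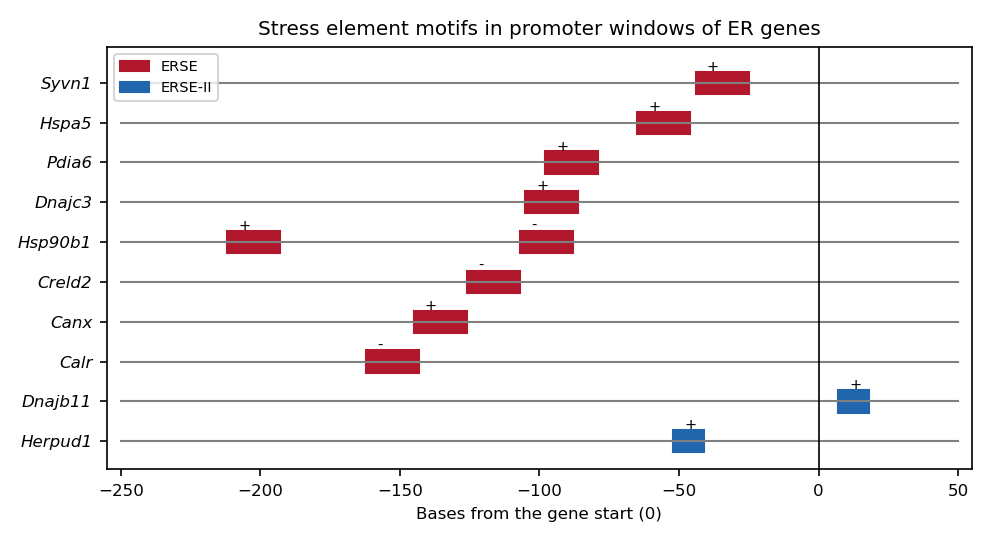
Position of the ERSE (red) and ERSE-II (blue) letters in the promoter windows of 10 ER genes, in bases from the gene start at 0, with + or - for the strand relative to the gene. Hsp90b1 holds 2 sites, and the site in Dnajb11 lies just after the start.

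Against this background 9 of the 43 tested genes passed an adjusted p under 0.05 in limma, 8 lower and 1 higher in knockout nodes. The share called lower, 18.6% of the members, was near the 17.3% of all 9973 genes called lower, while 10.2% of all genes and 2.33% of the members were called higher. Of all genes 27.5% were called in either direction. The members' median change was -0.08 and that of all genes 0.03. In 17 of the 43 members the 2 groups did not overlap, against 47.4% of all genes. Without wild-type replicate 2 the members called were 10 lower and 5 higher, beside 22.9% and 20.4% of all genes. The lower members were Srp14, Srp72, Spcs1, Sec11c, Hsp90b1, Dnajb9, Pdia4 and Syvn1, and the higher one was Ddit3. Of the 7 genes called lower that had a promoter window, 2 held the ERSE, Hsp90b1 and Syvn1. Of 25 tested genes with a window that were not called, 5 held it. Leaving out 1 array at a time gave 3, 5 and 3 called members without knockout replicates 1, 2 and 3, all of them lower, beside 11.3%, 9.22% and 8.27% of all genes called lower. Omitting wild-type replicate 1 gave 8 and omitting wild-type replicate 3 gave 4, again all lower, beside 10.3% and 8.99% of all genes. Srp14, Dnajb9 and Syvn1 were called in all 6 of these fits. In these bulk samples fewer cells of a type and less RNA per cell cannot be told apart.

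**Figure D2:**
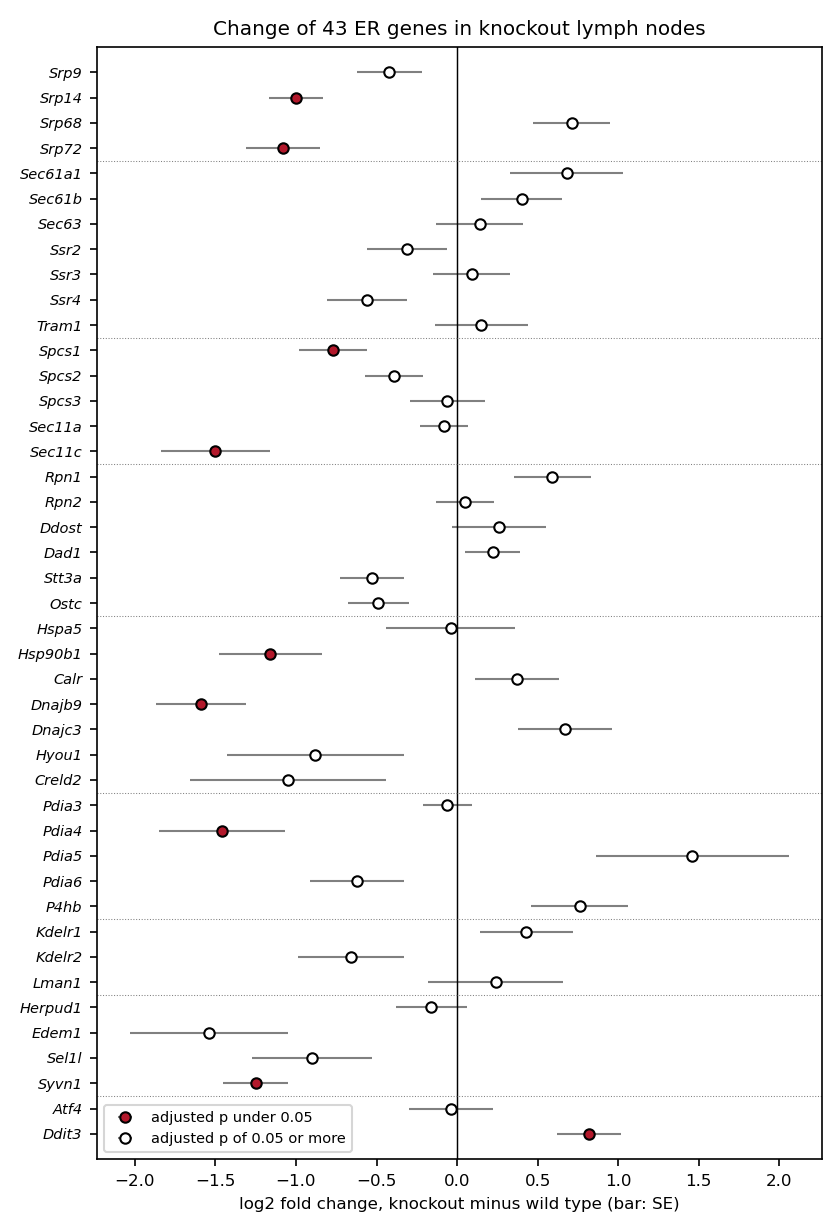
Change in log2 signal, knockout minus wild type, of the 43 tested ER genes, in blocks by role from the signal recognition particle at the top to stress factors at the bottom; bars are the SE of the fit. The 8 genes called lower lie between -1.59 and -0.77, and Ddit3 alone is called higher.

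The signal recognition particle had 2 of its 4 tested genes lower, with a median change of -0.71. Srp14, which with Srp9 forms the domain that slows translation, stood at 10.51, 10.79 and 10.60 in knockout nodes, against 11.40, 11.74 and 11.75 in wild-type nodes. The means were 10.63 ± 0.14 and 11.63 ± 0.20 (SD, n = 3 each), a change of -1.0 (SE 0.17, limma adjusted p = 0.0101), and the groups did not overlap. Srp72, a subunit of the domain that binds the ER receptor, stood at 7.47, 8.08 and 7.99 in knockout nodes, against 8.63, 9.03 and 9.10 in wild-type nodes (change -1.08, SE 0.23, adjusted p = 0.0193, limma). Omitting knockout replicate 1, knockout replicate 3 or wild-type replicate 3 ended the call, with adjusted p up to 0.0678 in limma. Its binding partner Srp68 lay the other way, at 9.16, 9.95 and 9.50 in knockout nodes, against 8.61, 8.85 and 9.01 in wild-type nodes (change 0.71, SE 0.24, adjusted p = 0.0696, limma). The groups did not overlap for Srp68, though it was not called. The brighter probe of Srp9 changed by -0.42 (adjusted p = 0.159), and its dimmer probe, at 8.04, 8.87 and 8.27 in knockout nodes against 9.41, 9.81 and 9.85 in wild-type nodes, changed by -1.29 (adjusted p = 0.0158, limma). The 2 probes of Srp9 therefore gave different calls.

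None of the 7 tested translocon genes was called, and their median change was 0.14. Sec61a1, the channel-forming subunit, stood at 12.20, 12.57 and 12.67 in knockout nodes, against 11.13, 12.46 and 11.79 in wild-type nodes (change 0.68, SE 0.35, limma adjusted p = 0.178). Wild-type replicate 2 lay within the knockout range, and the other wild-type arrays lay below it. Without that array the change was 1.02 (limma adjusted p = 0.0229), and against it alone 0.01. Of the 6 fits with an array left out, 1 called Sec61a1, the fit without wild-type replicate 2. Leaving out an array that lies toward the other group widens a change by construction, here and for the genes below. Sec61b, a small subunit of the same channel, did likewise, at 8.68, 8.86 and 8.73 in knockout nodes and 7.90, 8.84 and 8.34 in wild-type nodes, with a change of 0.64 without wild-type replicate 2 (limma adjusted p = 0.0397). Its second probe changed by 0.68 over all arrays (adjusted p = 0.0944, limma). Sec63, a partner of the channel, changed by 0.14, Tram1, a translocating chain protein, by 0.15, and the translocon-associated proteins Ssr2, Ssr3 and Ssr4 by -0.31, 0.09 and -0.56. Dimmer probes gave the opposite sign, at -0.24 for Sec63 and at -0.05 and -0.66 for Tram1 (limma adjusted p = 0.457, adjusted p = 0.923 and adjusted p = 0.176). The directions of Sec63 and Tram1 therefore depend on the probe. Ssr4 was the one translocon gene whose groups did not overlap, beside 47.4% of all genes. It stood at 13.61, 14.28 and 14.12 in knockout nodes and 14.38, 14.41 and 14.91 in wild-type nodes (adjusted p = 0.131, limma). In all 7 genes wild-type replicate 1 was the lowest wild-type array and knockout replicate 1 the lowest knockout array.

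The signal peptidase had 2 of 5 tested genes lower and a median change of -0.39. Sec11c, a catalytic subunit, stood at 10.04, 10.90 and 10.49 in knockout nodes, against 11.44, 11.96 and 12.53 in wild-type nodes (change -1.50, SE 0.34, limma adjusted p = 0.0236). Its paralog Sec11a, the other catalytic subunit, changed by -0.08, at 12.60, 12.80 and 12.54 in knockout nodes and 12.58, 12.76 and 12.84 in wild-type nodes (adjusted p = 0.721, limma). The difference between the 2 paralogs was not tested. Spcs1, a noncatalytic subunit, stood at 13.44, 13.72 and 13.70 in knockout nodes, against 14.04, 14.45 and 14.68 in wild-type nodes (change -0.77, SE 0.21, adjusted p = 0.0387, limma). Its dimmer probe changed by -0.19 (adjusted p = 0.588, limma), so the call rests on 1 of 2 probes. Omitting knockout replicate 1, knockout replicate 3 or wild-type replicate 3 ended the call of Sec11c (limma adjusted p up to 0.0768). Omitting wild-type replicate 3 or a single knockout array ended that of Spcs1 (limma adjusted p up to 0.111). Spcs2, detected on 1 knockout and 3 wild-type arrays, stood at 5.32, 5.42 and 5.84 in knockout nodes, against 5.87, 5.86 and 6.01 in wild-type nodes (change -0.39, adjusted p = 0.151, limma), which is close to background. Spcs3 changed by -0.06.

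None of the 6 oligosaccharyltransferase genes was called, and their median change was 0.14. Rpn1, a structural subunit, stood at 6.64, 6.77 and 6.80 in knockout nodes, against 5.65, 6.29 and 6.48 in wild-type nodes (change 0.59, SE 0.24, limma adjusted p = 0.108). Its probe was dim, with a detection p-value of 0.0489 on wild-type replicate 1. Before processing its intensities ran the other way, at 171.2, 165.4 and 183.9 in knockout nodes and 186.8, 204 and 221.7 in wild-type nodes. The direction of Rpn1 therefore rests on the normalization. Stt3a, a catalytic subunit, stood at 8.22, 8.37 and 8.27 in knockout nodes and at 8.47, 9.10 and 8.88 in wild-type nodes (change -0.53, SE 0.20, limma adjusted p = 0.0875). Ostc, which sits with Stt3a at the translocon, stood at 12.84, 13.01 and 13.06 in knockout nodes and at 13.18, 13.50 and 13.73 in wild-type nodes (change -0.49, limma adjusted p = 0.0946). In these 3 of the 6 genes the groups did not overlap, beside 47.4% of all genes. Rpn1 lay in one direction and Stt3a and Ostc in the other. Rpn2, Ddost and Dad1, further subunits, changed by 0.05, 0.26 and 0.22.

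Chaperones and their helpers did not move as 1 group: 2 of 7 were lower, 0 higher, and the changes ran from -1.59 to 0.67 with a median of -0.88. Dnajb9, a DnaJ partner of Hspa5, stood at 9.83, 9.87 and 10.23 in knockout nodes, against 11.03, 11.69 and 11.98 in wild-type nodes. Its change of -1.59 (SE 0.28, limma adjusted p = 0.0102) was the most negative of the 43. Hsp90b1, the ER form of Hsp90, which folds integrins and Toll-like receptors, stood at 13.56, 13.87 and 13.55 in knockout nodes, against 14.75, 14.25 and 15.45 in wild-type nodes (change -1.16, SE 0.32, adjusted p = 0.0387, limma). The call of Hsp90b1 held only where wild-type replicate 2 was the array left out (limma adjusted p = 0.00654) and was lost in the other 5 such fits, with adjusted p up to 0.117. Hspa5, the main ER Hsp70, stood at 6.77, 7.72 and 6.77 in knockout nodes, against 6.95, 6.61 and 7.83 in wild-type nodes, a change of -0.04 (SE 0.40, limma adjusted p = 0.942). Knockout replicate 2 and wild-type replicate 3 lay well above the other arrays, so the groups overlapped and the change of Hspa5 is known only within a wide range. Creld2, a stress-induced ER protein, stood at 11.63, 12.72 and 11.78 in knockout nodes, against 12.90, 12.05 and 14.35 in wild-type nodes (change -1.05, SE 0.61, limma adjusted p = 0.222). Without wild-type replicate 2 it changed by -1.58 (limma adjusted p = 0.0463), the 1 call in the 6 fits with an array left out. Hyou1, a large Hsp70 relative, had a similar order of arrays, at 5.82, 7.01 and 5.47 in knockout nodes and 6.99, 6.13 and 7.82 in wild-type nodes (change -0.88, adjusted p = 0.255, limma). Calr, a lectin chaperone, changed by 0.37, and Dnajc3, an Hspa5 partner that also restrains Eif2ak3, by 0.67 (limma adjusted p = 0.312 and adjusted p = 0.122).

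Of the 5 disulfide isomerases 1 was lower. Pdia4 stood at 12.05, 12.15 and 12.07 in knockout nodes, against 13.20, 12.99 and 14.45 in wild-type nodes (change -1.46, SE 0.39, limma adjusted p = 0.0352). The means were 12.09 ± 0.05 and 13.55 ± 0.79 (SD, n = 3 each), so the spread lay almost entirely among the wild-type arrays. Its call was kept without wild-type replicate 2 or 3 and lost without any of the other 4 arrays (limma adjusted p up to 0.103). Pdia5 lay the other way, at 11.76, 11.59 and 12.45 in knockout nodes, against 9.49, 11.82 and 10.11 in wild-type nodes (change 1.46, SE 0.60, limma adjusted p = 0.113). Wild-type replicate 2 was at the knockout level on all 3 Pdia5 probes, and without it the change was 2.14 (limma adjusted p = 0.00403). That was the 1 call of Pdia5 in the 6 fits with an array left out. P4hb, the founding disulfide isomerase, stood at 14.85, 15.32 and 15.30 in knockout nodes, against 13.90, 14.93 and 14.35 in wild-type nodes (change 0.76, adjusted p = 0.0979, limma). It changed by 1.03 without wild-type replicate 2 (limma adjusted p = 0.0156). Pdia3, which works with calreticulin, changed by -0.06, and Pdia6 by -0.62 (limma adjusted p = 0.772 and adjusted p = 0.148).

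None of the 3 retrieval and cargo receptors was called. Kdelr2, a receptor that returns escaped ER proteins, stood at 9.69, 9.84 and 9.91 in knockout nodes, against 9.71, 10.79 and 10.91 in wild-type nodes (change -0.66, SE 0.33, limma adjusted p = 0.173). Wild-type replicate 1 lay among the knockout arrays, and without it the change was -1.04 (limma adjusted p = 0.0227). That array was picked on these same values, and Kdelr2 was called in 1 of the 6 fits with an array left out. Kdelr1, another such receptor, was close to background, detected on 2 arrays of either group, and changed by 0.43. Before processing its intensities ran the other way, at 115.6, 135.4 and 133.5 in knockout nodes and 146.1, 170.4 and 170.6 in wild-type nodes. The direction of Kdelr1 therefore rests on the normalization, as for Rpn1. Lman1, a lectin that carries cargo to the Golgi, changed by 0.24, at 11.06, 11.79 and 11.89 in knockout nodes and 10.66, 12.13 and 11.25 in wild-type nodes.

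Genes of ER-associated degradation had the lowest median of the role groups, -1.08, with 1 of 4 called. Syvn1, the membrane ubiquitin ligase of this pathway, stood at 12.73, 12.85 and 12.95 in knockout nodes, against 14.23, 13.73 and 14.34 in wild-type nodes (change -1.25, SE 0.20, limma adjusted p = 0.00863). That adjusted p was the smallest of the 43. Sel1l, the partner of Syvn1, stood at 11.26, 12.08 and 11.62 in knockout nodes, against 12.02, 12.38 and 13.26 in wild-type nodes (change -0.90, SE 0.37, limma adjusted p = 0.111). Edem1, which directs misfolded glycoproteins to degradation, stood at 7.80, 8.37 and 8.47 in knockout nodes, against 9.34, 9.06 and 10.87 in wild-type nodes (change -1.54, SE 0.49, limma adjusted p = 0.0599). The groups did not overlap for Edem1, and without wild-type replicate 2 it changed by -1.89 (limma adjusted p = 0.0192). That was the 1 call of Edem1 in the 6 fits with an array left out. Herpud1, a stress-induced scaffold of the same machinery, changed by -0.16.

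Of the stress sensors and factors only Ddit3 and Atf4 could be tested. Ddit3, a transcription factor induced in prolonged ER stress and by other stresses, stood at 10.04, 9.69 and 9.52 in knockout nodes, against 8.83, 9.17 and 8.78 in wild-type nodes (change 0.82, SE 0.20, limma adjusted p = 0.0287). The means were 9.75 ± 0.27 and 8.93 ± 0.21 (SD, n = 3 each). The other Ddit3 probe, at 8.86, 8.91 and 8.55 in knockout nodes and 8.39, 8.86 and 7.98 in wild-type nodes, changed by 0.36 (adjusted p = 0.308, limma). The call of the brighter probe held only where wild-type replicate 2 was the array left out (limma adjusted p = 0.013) and was lost in the other 5 such fits (limma adjusted p up to 0.0922). Atf4, which acts upstream of Ddit3, stood at 10.78, 11.41 and 11.11 in knockout nodes, against 10.80, 11.53 and 11.10 in wild-type nodes, a change of -0.04 (SE 0.26, limma adjusted p = 0.908). The probe of the sensor Ern1 had detection p-values of 0.241, 0.287 and 0.153 in knockout nodes and 0.404, 0.585 and 0.0915 in wild-type nodes, so its level was not measured here.

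**Figure D3:**
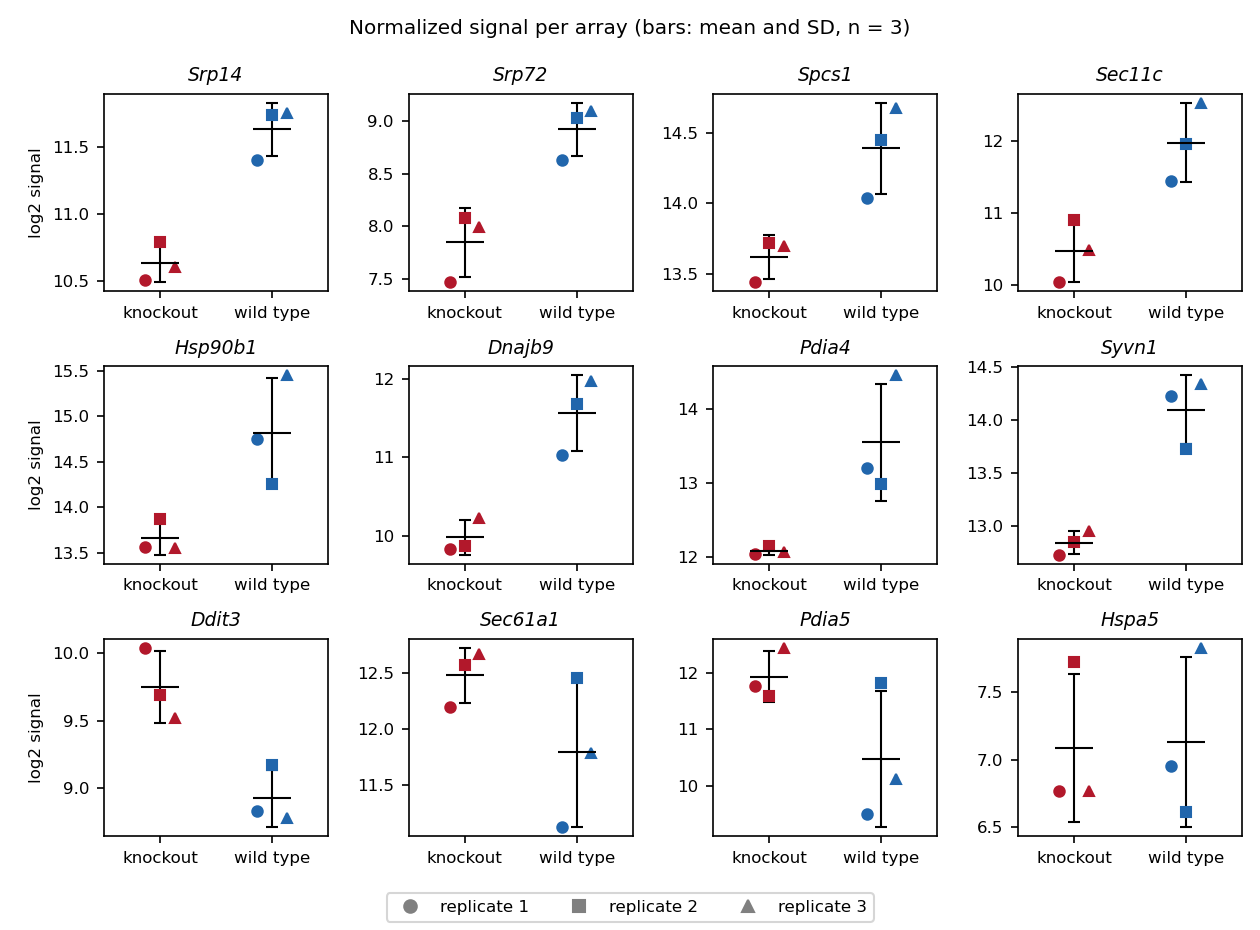
Normalized log2 signal on each array of the 9 called ER genes and of Sec61a1, Pdia5 and Hspa5, knockout left and wild type right, with the replicate as the symbol and the mean and SD of 3 arrays as bars. For Sec61a1 and Pdia5 wild-type replicate 2 sits at the knockout level, and for Hsp90b1, Pdia4 and Syvn1 it is the lowest wild-type array.

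A wider list of 69 other ER pathway genes gave 3 lower and 3 higher among 54 tested, with a median change of 0.07. These shares, 5.56% lower and 5.56% higher, were below the 17.3% and 10.2% of all genes. Srp19, another subunit of the signal recognition particle, stood at 6.40, 7.25 and 6.48 in knockout nodes, against 8.22, 7.98 and 8.80 in wild-type nodes (change -1.63, limma adjusted p = 0.0145). Eif2ak3, the sensor kinase also called PERK, stood at 8.42, 9.01 and 9.27 in knockout nodes, against 9.82, 10.63 and 9.91 in wild-type nodes (change -1.22, limma adjusted p = 0.032). Selenok, a selenoprotein of the ER membrane, changed by -1.18 (limma adjusted p = 0.0195). These 3 genes fell. Higher were Atf3, a stress-induced transcription factor, by 1.11, Fkbp14, a prolyl isomerase of the ER, by 1.09, and Creb3, a membrane-bound transcription factor, by 0.74 (limma adjusted p = 0.0337, adjusted p = 0.0142 and adjusted p = 0.0397). Without any 1 array, the highest adjusted p in limma was 0.0589 for Srp19, 0.082 for Eif2ak3, 0.0664 for Selenok, 0.104 for Atf3 and 0.0573 for Fkbp14. Xbp1, the factor that Ern1 activates by splicing and that plasma cells need to secrete, stood at 14.77, 14.58 and 15.02 in knockout nodes, against 14.88, 15.37 and 15.79 in wild-type nodes (change -0.56, SE 0.27, limma adjusted p = 0.153). No source used here says whether this probe distinguishes the spliced form.

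The order of the arrays differed between the role groups. Among the wild-type arrays, replicate 3 was highest for 30 of the 43 genes (69.8%, against 31.1% of all genes) and replicate 1 for 0 (against 37.7%). Replicate 3 was highest for all 8 genes called lower, against 34.9% of all genes called lower. It was also highest for 6 of 8 plasma cell and 12 of 13 macrophage markers, and for 1 of 15 B cell, 2 of 16 T cell, 1 of 25 gland and 2 of 10 dendritic cell markers. Among the other ER pathway genes it was highest for 30 of 54. Wild-type replicate 1 was lowest for 33 of the 43 (76.7%, against 27.3% of all genes). Knockout replicate 1 was the lowest knockout array for 35 of the 43 (81.4%, against 33.7%). Among the other ER pathway genes these 2 counts were 39 and 35 of 54. They were 13 and 19 of 25 gland genes and 13 and 14 of 14 epithelial genes. Plasma cell markers gave 1 and 3 of 8, B cell markers 0 and 2 of 15, and T cell markers 1 and 0 of 16. Macrophage markers gave 2 and 3 of 13 and dendritic cell markers 0 and 0 of 10. Knockout replicate 1 was also the knockout array with the lowest mean of the gland list. Wild-type replicates 1 and 3, which differed in the order of the members, had gland means of 6.06 and 5.99. A link between the 2 orders was not tested.

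Wild-type replicate 2 was the lowest wild-type array for 52.4% of all genes, for 5 of 7 chaperones and for 0 of 7 translocon genes. It was the lowest for 7 of 8 plasma cell, 14 of 15 B cell, 14 of 16 T cell, 11 of 13 macrophage and 9 of 10 dendritic cell markers, and for 0 of 25 gland and 0 of 14 epithelial markers. The difference between chaperones and translocon genes was not tested. The mean chaperone level was 10.05, 10.75 and 10.13 in knockout nodes, against 10.64, 10.41 and 11.47 in wild-type nodes. The mean translocon level was 12.26, 12.69 and 12.62 in knockout nodes, against 12.02, 12.68 and 12.62 in wild-type nodes, where replicates 2 and 3 were at the knockout level. ER-associated degradation genes averaged 11.58, 12.01 and 11.96 in knockout nodes, against 12.51, 12.58 and 13.36 in wild-type nodes, without overlap. The oligosaccharyltransferase mean was 11.21, 11.42 and 11.38 in knockout nodes and 10.98, 11.42 and 11.55 in wild-type nodes. The part of plasma cells in these orders was not tested.

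**Figure D4:**
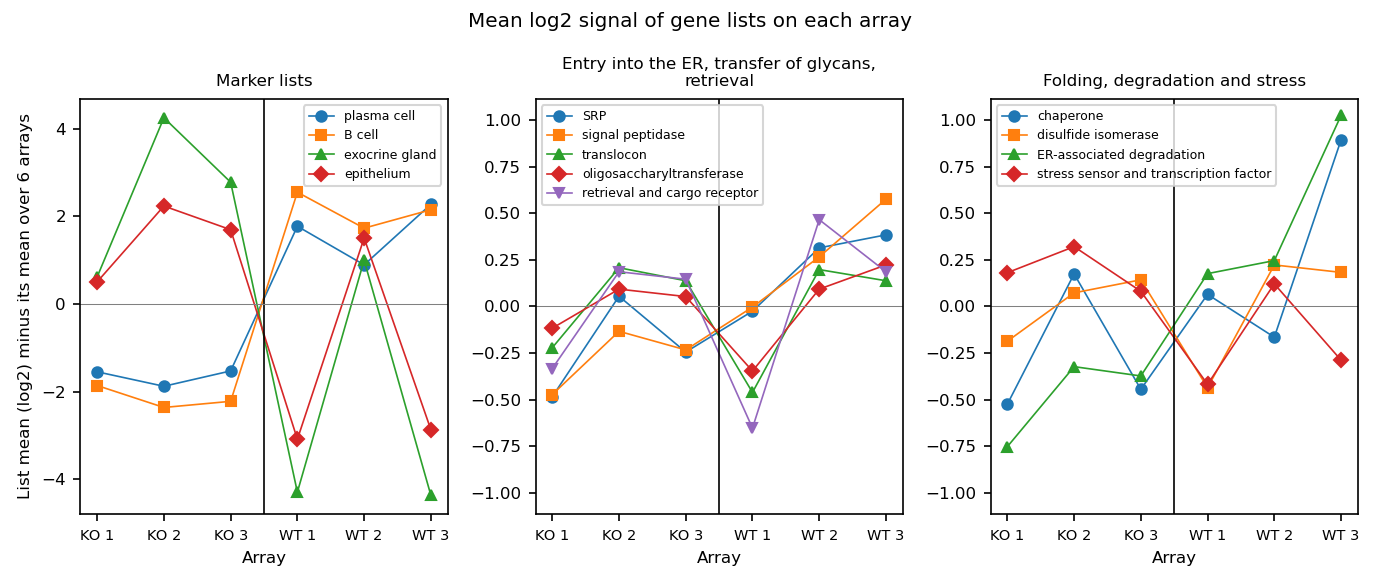
Mean log2 signal of marker lists (left) and of the role groups of ER genes (middle and right) on each array, minus the mean of the list over the 6 arrays; lines join the arrays for reading only, and the vertical axis of the left panel differs. The gland and epithelium lists are high on the knockout arrays and wild-type replicate 2, and the plasma cell and B cell lists are low on all 3 knockout arrays.

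Wild-type replicate 2 was nearer to the knockout mean than to the mean of the other wild-type arrays for 19 of the 43 genes (44.2%), against 44.3% of all genes. By role this held for 6 of 7 translocon genes, 4 of 7 chaperones, 2 of 3 retrieval and cargo receptors, 2 of 6 oligosaccharyltransferase genes, 2 of 5 disulfide isomerases, 1 of 5 signal peptidase genes, 1 of 4 degradation genes and 0 of 4 signal recognition particle genes. Of the 8 genes called lower it held for 1, against 10.2% of all genes called lower. It held for 17 of 25 gland genes and 12 of 14 epithelial genes.

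Taking the mean of the gland list as a covariate left Dnajb9, Srp14 and Srp72 called lower and 0 members called higher, beside 8.56% and 10.7% of all genes. Dnajb9 then changed by -1.74, Srp14 by -1.21 and Srp72 by -1.43 (limma adjusted p = 0.0423, adjusted p = 0.0231 and adjusted p = 0.0308). Sec11c changed by -1.78 and Spcs1 by -0.93, no smaller than before but not called (limma adjusted p = 0.0677 and adjusted p = 0.0916). Hsp90b1, Pdia4 and Syvn1 changed by -0.65, -0.88 and -0.91, less than before (limma adjusted p = 0.329, adjusted p = 0.298 and adjusted p = 0.0607). Of the 17 members with a positive change, 16 had a lower value with the covariate, Calr (0.64) being the exception. Of the 17, 12 moved nearer to 0, among them Pdia5 at 0.07, P4hb at 0.02, Sec61a1 at -0.17 and Ddit3 at 0.70, and 5 moved farther from it. Those 5 were Calr and, below 0, Lman1 at -0.88, Tram1 at -0.56, Sec63 at -0.31 and Ssr3 at -0.17. The covariate follows genotype in part, so it also removes change that the 2 share.

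Set against wild-type replicate 2 alone, the knockout arrays gave 1 called member, Dnajb9, at -1.71 (limma adjusted p = 0.0413), beside 3.72% of all genes called lower and 2.69% called higher. That lone array is assumed to vary like the knockout arrays. Srp14, Srp72, Sec11c and Spcs1 changed by -1.10, -1.19, -1.48 and -0.83 there, much as in the full comparison. Hsp90b1, Pdia4 and Syvn1 changed by -0.59, -0.89 and -0.88. Creld2 gave 0.00 and Pdia5 0.12.

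**Figure D5:**
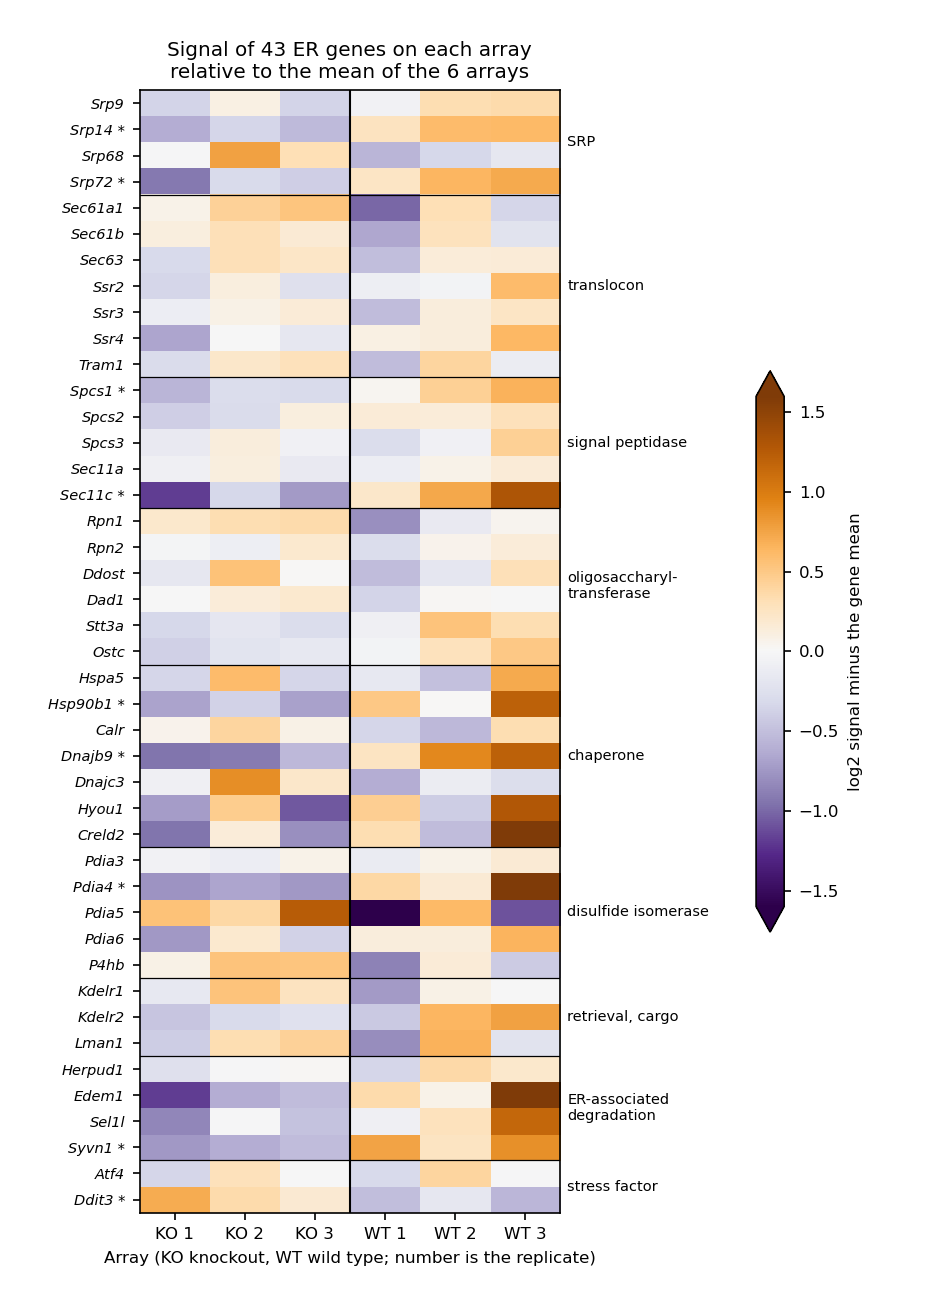
Log2 signal minus the gene's mean over 6 arrays for the 43 tested ER genes by role, knockout arrays left and wild-type arrays right; the colour scale stops at 1.6 either way. Purple is low, orange is high, and an asterisk marks a called gene. The 8 genes called lower are purple on all 3 knockout arrays, and Pdia5, P4hb and Sec61a1 are orange or pale on the knockout arrays and on wild-type replicate 2.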

How the data were processed

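Signals of 25697 probes on 6 Illumina Mouse Ref-8 v2 arrays were analysed, 3 of each genotype; 51.3% to 56.3% of probes were detected per array. The deposited table holds a linear intensity and a detection p-value per probe and array, and the submitters' processing notes name GenomeStudio 2011.1. A second table deposited by the authors is on the log2 scale; it differed by at most 5e-07 from quantile-normalized log2 intensities without background correction, had a median of 7.38 in each column, and served as an alternative.

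Intensities were background-corrected with normexp using the detection p-values, given an offset of 16, normalized by quantiles and put on the log2 scale (neqc, limma 3.58.1, R 4.3.3). The 14378 probes detected at 0.05 on 3 or more arrays entered limma's lmFit and eBayes (knockout minus wild type, two-sided), with Benjamini-Hochberg adjustment over all of them and calls at 0.05. A gene stands for its brightest tested probe, and further tested probes of members are given where they differ in sign or call. A probe above background on no array of a group has a bound: the bright group's mean over, per dim array, the lowest detected signal or, if higher, its own. The offset shrinks changes of dim probes. The number of arrays limits the precision. The fit was run on simulated data with independent noise for each probe, which hold no signal shared by the probes of an array. That run therefore does not cover the gland signal of wild-type replicate 2.

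Of the probes 23978 had 1 symbol in the platform annotation, 0 several and 1719 none. The genes and the lists were chosen with earlier results of these data known. Genes were named by rule. They were Hspa5, Sec61a1, Atf4 and Ddit3, and up to 3 called members and the largest uncalled change of each role group. Up to 5 called other ER genes, Xbp1, and up to 4 plasma cell and 4 gland genes with the largest change were added. Values on every array were given for these except Selenok, Atf3, Fkbp14, Tnfrsf17, Tnfrsf13b, Dcpp3 and Bpifa2. Other values were chosen after they were seen. The lists were plasma cell, B cell, T cell, exocrine gland, epithelium, macrophage, dendritic cell and other ER pathway genes. Promoter sequences and coordinates come from a RefSeq table of GRCm38.p6. Alternatives covered the authors' table, offset, scaling, filter, probes, variance model, replicate block, gland covariate and arrays left out.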

Additional observations from a re-analysis of the deposited data

How the results depend on the processing

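The 9 called members (8 lower, 1 higher) numbered the same with the authors' table, an offset of 50, detection required on all 6 arrays, and eBayes with trend and robust. Median scaling and no filter on dim probes gave 7 each, 6 lower and 1 higher, and the mean of a gene's probes 8, with 0 higher. Under median scaling 15.8% of all genes were called lower and 9.135% higher. With no filter, where 48 members and 16593 genes were tested, these shares were 10.47% and 6.274%. With the mean of a gene's probes they were 17.74% and 9.947%. The shares of members called lower in these fits were 13.95%, 12.5% and 18.6%, in the same order. The gland covariate gave 3, 3 lower and 0 higher, and wild-type replicate 2 alone 1, with 1 lower and 0 higher. Leaving out 1 array gave 3 to 15 called, 3 to 10 lower and 0 to 5 higher, beside 8.27% to 22.9% of all genes lower and 3.28% to 20.4% higher. The median change ran from -0.36 to -0.03 over the alternatives. Same-numbered arrays did not all deviate together (correlations of deviations 0.489, 0.318 and -0.308). With so few arrays these values cannot tell whether the numbers pair the samples. With the replicate block 12 members were called, 8 lower and 4 higher (Ddit3, Dnajc3, P4hb and Srp68), beside 18.4% and 13.3% of all genes, with Edem1 gained and Hsp90b1 lost; not every array correlated best with its own number. Of all 43 members 9 turned sign under the covariate fit and 8 in the fit against wild-type replicate 2 alone, including Lman1 (-0.88 and -0.55) and Tram1 (-0.56 and -0.33). Among the genes named by rule, those that turned sign were Hspa5 (0.19 with the gland covariate, 0.47 against wild-type replicate 2 alone, -0.36 to 0.31 without 1 array), Sec61a1 (-0.17 with the covariate), Atf4 (-0.21 to 0.15 without 1 array), Dcpp2, Dcpp3 and Bpifa2 (-0.43, -0.48 and -0.48 with the covariate), and Dcpp3 and Bpifa2 (-0.07 and -0.08 against wild-type replicate 2 alone). Hspa5 and Atf4 were never called. Dcpp2, Dcpp3 and Bpifa2 belong to the gland list whose mean is the covariate, so that fit removes their change by construction. For the named genes 423 values kept direction and status (called or not called), 74 lost the call, 10 gained one and 13 turned sign. The 423 include genes called in neither fit and do not regard size. Creld2, for one, counted as kept at 0 against wild-type replicate 2 alone. Beyond the fewer samples in the fits with arrays left out, the cause was not tested. Weak signal limits Spcs2, Kdelr1, Rpn1, Hyou1 and Hspa5, and 5 members with a probe gave no value.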
